A study of Mus musculus with 7 samples.

Results

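The transcripts of 10 genes of the BCL-2 family were followed in splenic CD4+CD25+ cells, called regulatory T cells (Tregs) by the study, from aged and young mice. The members, picked by gene symbol from the 25469 genes of the deposited table, were Bcl2, Bcl2l1, Mcl1, Bcl2a1b and Bcl2a1d (anti-apoptotic), Bcl2l11, Bmf and Bbc3 (BH3-only), and Bax and Bak1 (effectors). The aged group held 3 libraries from wild-type male C57BL/6 mice of 18 months, and the young group held 4 libraries from wild-type male mice of the same strain labelled as 8 weeks old, an age that the study's methods put somewhat higher. The cells were taken with a magnetic bead kit for CD4 and CD25, which selects on surface proteins and not on Foxp3, and cDNA was made with SMART-Seq v4, a kit for low RNA input that adds no molecular identifiers. The labels call the libraries biological replicates and say nothing further of separate mice, so that p-values measure the spread between these libraries.

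The BCL-2 family decides whether the outer mitochondrial membrane of a cell is breached. Anti-apoptotic members such as BCL-2, BCL-XL, MCL-1 and A1 hold the effectors BAX and BAK in check. BH3-only proteins such as BIM, BMF and PUMA bind the anti-apoptotic members, and some of them also activate the effectors, after which cytochrome c leaves the mitochondria and caspases are switched on. In T cells, loss of cytokine signals raises BIM, and Tregs are known to depend on MCL-1 for their survival.

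The short BH3 segment, through which members bind each other, was read from the coding sequence of GENCODE M21 (GRCm38). It was searched as the codons for leucine, any 3 residues, glycine or alanine, and aspartate, followed by aspartate, glutamate, glycine or glutamine. The pattern was found once in each of the 8 members other than Bcl2a1b and Bcl2a1d, and in 1414 (6.55%) of the 21576 protein-coding genes with a complete coding sequence. The stretches of the 3 BH3-only members are shown because all 3 were lower in aged cells, and those of Bcl2 and Bax because they stand for the proteins that BH3-only members bind. Capitals mark the 18 bases from the leucine to the aspartate codon. They lie at chr2:128147129-128147188 in exon 3 of 4 for Bcl2l11 (plus strand), chr2:118545088-118545147 in exon 4 of 5 for Bmf (minus strand), chr7:16313752-16313811 in exon 3 of 4 for Bbc3 (plus strand), chr1:106712563-106712622 in exon 1 of 2 for Bcl2 (minus strand) and chr7:45465985-45466044 in exon 3 of 6 for Bax (minus strand).
Bcl2l11: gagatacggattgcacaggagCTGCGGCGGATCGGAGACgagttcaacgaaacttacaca
Bmf: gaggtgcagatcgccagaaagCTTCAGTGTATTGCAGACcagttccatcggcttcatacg
Bbc3: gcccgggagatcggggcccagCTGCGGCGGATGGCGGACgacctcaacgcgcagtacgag
Bcl2: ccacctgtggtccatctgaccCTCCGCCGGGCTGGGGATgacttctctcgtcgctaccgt
Bax: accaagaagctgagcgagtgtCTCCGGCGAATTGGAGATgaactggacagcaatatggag

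Values are raw read counts per gene, scaled to library size (CPM, on the scale of the library total) with edgeR's TMM factors, and are listed by replicate number within each age. Reads counted on genes ranged from 10734234 to 13649310 per library. Scaled by these totals alone, without TMM factors, 3 counts, taken as the limit of detection, were worth 0.220 to 0.279 CPM. All 10 members had at least 26 counts in every library. Foxp3, which defines Tregs, was at 447 to 622 CPM in aged and 394 to 518 CPM in young libraries, with a log2 fold change of 0.21 (adjusted p = 0.409, edgeR). Cd4 was at 434 to 446 and 493 to 633 CPM, and Il2ra, which encodes CD25, at 327 to 481 and 471 to 684 CPM, with adjusted p-values of 0.117 and 0.0588. Of 8 Treg markers, which include these genes, 1 was called higher in aged libraries and none lower, beside 9.80% of all genes called higher. Their summed CPM was 3265 to 3829 in aged and 2628 to 3833 in young libraries. Ctla4, the most abundant of them, was at 640 to 835 CPM in aged and 257 to 721 CPM in young libraries, highest among young ones in replicate 2. Its log2 fold change was 0.86 (adjusted p = 0.103, edgeR). Transcripts of other cells were present: the summed 7 erythroid markers reached 12383 to 156939 CPM, led by Hbb-bs, and the 10 neutrophil markers 271 to 5366 CPM, led by S100a9. Aged replicate 1 held the highest neutrophil sum and young replicate 2 the highest sum of 4 plasma cell markers (1831 CPM, led by Jchain).

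Of the 10 members, 6 differed between aged and young cells at an adjusted p under 0.05 (quasi-likelihood test of edgeR, adjusted by Benjamini-Hochberg over 13904 genes), where 16.7% of all genes tested did. The lower members were 4, Bcl2, Bcl2l11, Bmf and Bbc3, beside 6.94% of all genes called lower. The higher members were 2, Bcl2a1b and Bcl2a1d, beside 9.80% of all genes called higher. Aged and young libraries did not overlap for 7 members, the 6 called and Mcl1, and for 29.9% of all genes tested. By role, the 3 BH3-only genes among the members were lower, with a median log2 fold change of -0.90, and neither effector was called, with a median of 0.0040. Of the BH3-only genes outside the 10 members, Pmaip1 had a log2 fold change of 0.59 and was called higher, a call that held in 1 of 7 fits with a library left out and was lost with library-size scaling, and Bid (-0.06), Bad (-0.23) and Bik (0.48) were not called. The median over all genes tested was 0.02. The count of called members was 2 without aged replicate 3 and 3 without young replicate 1, 3 or 4, and all genes called then numbered 1237 to 1315 instead of 2327. With aged replicate 1 and young replicate 2 both left out, which was decided once the data had been seen, it was 5, without Bbc3. In bulk RNA, fewer cells that express a gene and less RNA per cell cannot be told apart.

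**Figure D1:**
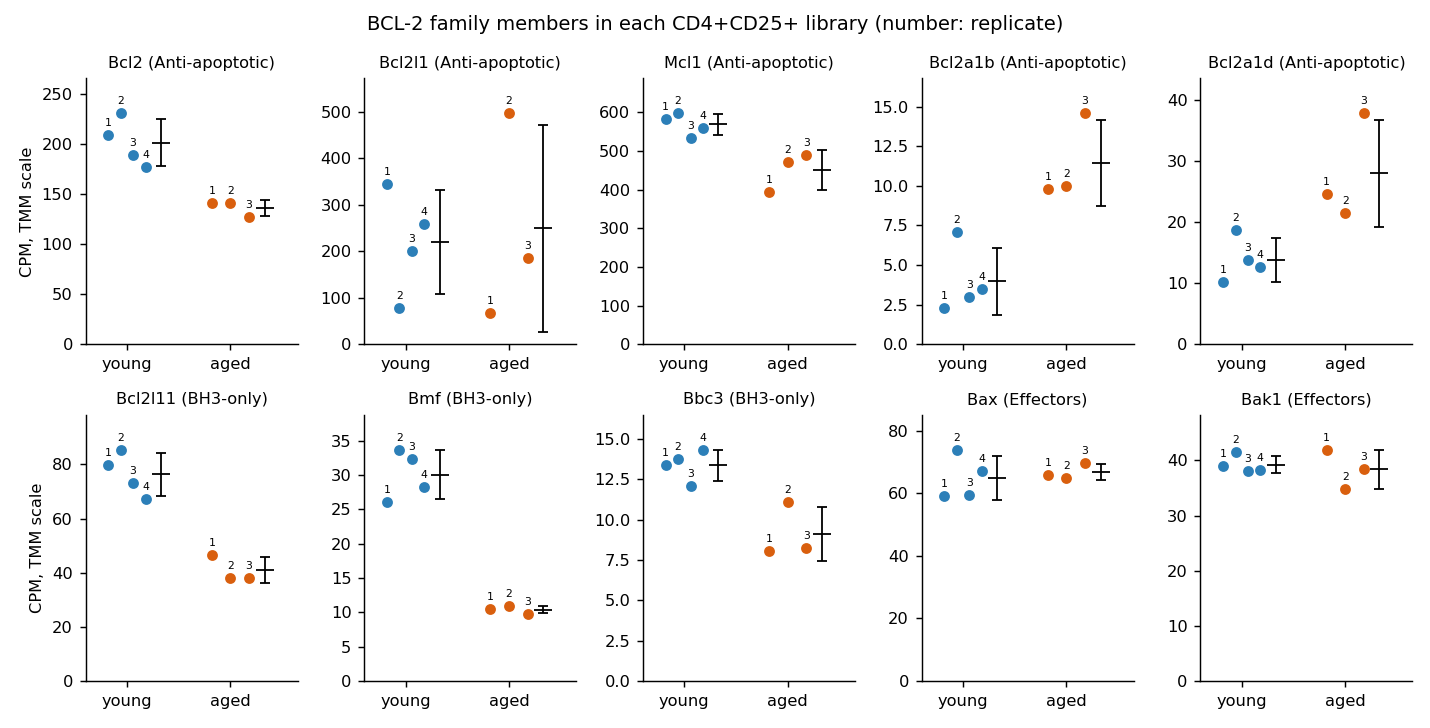
CPM (TMM scale, axes from 0) of the 10 members in each young (blue, n = 4) and aged (orange, n = 3) library, numbered by replicate, with mean ± SD in black. The aged libraries lie below every young library for Bcl2, Mcl1, Bcl2l11, Bmf and Bbc3, above every young library for Bcl2a1b and Bcl2a1d, within the young range for Bax, and both below and above it for Bcl2l1 and Bak1.

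Bmf, whose protein BMF is a BH3-only sensor tied to the cytoskeleton in resting cells, was lower in aged cells. It lies at chr2:118528757-118549687 on the minus strand. Bmf CPM were 10.5, 10.9 and 9.83 in the aged libraries and 26.1, 33.7, 32.3 and 28.2 in the young libraries. The lowest young library stood well above the highest aged library, and the aged libraries differed little from each other. The mean was 10.4 ± 0.531 (SD, n = 3) in aged and 30.1 ± 3.51 (SD, n = 4) in young cells. The log2 fold change was -1.53 (SE 0.133, adjusted p = 0.000555, edgeR), a level of 0.345 times the young one. Bmf stayed called with each of the 7 libraries left out in turn, with log2 fold changes from -1.59 to -1.47.

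Bcl2l11, which encodes BIM, the main BH3-only killer of T cells deprived of cytokine, lies at chr2:128126038-128162547 on the plus strand. Bcl2l11 CPM were 46.6, 38.1 and 38.1 in the aged libraries and 79.6, 85.4, 73.2 and 67.2 in the young libraries. The groups did not overlap, and aged replicate 1 was the nearest of the aged libraries to the young ones. The mean was 40.9 ± 4.90 (SD, n = 3) against 76.4 ± 7.87 (SD, n = 4), a log2 fold change of -0.90 (SE 0.120, adjusted p = 0.00258, edgeR). The change stayed called with each library left out in turn, from -1.01 to -0.84.

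Bbc3, which encodes PUMA, a BH3-only protein induced by p53, lies at chr7:16308393-16318205 on the plus strand. Bbc3 CPM were 8.04, 11.1 and 8.23 in the aged libraries and 13.4, 13.7, 12.1 and 14.3 in the young libraries. The groups did not overlap, with aged replicate 2 closest to young replicate 3. The mean was 9.12 ± 1.70 (SD, n = 3) against 13.4 ± 0.952 (SD, n = 4), and the log2 fold change was -0.56 (SE 0.160, adjusted p = 0.0472, edgeR). This call stood just under the threshold: without aged replicate 1 or 3 or any 1 of the young replicates, the adjusted p rose to between 0.0787 and 0.144, while the log2 fold change stayed from -0.60 to -0.48. Without aged replicate 2 it was -0.72 (adjusted p = 0.0253). Its adjusted p was 0.0613 with no filter on low counts (-0.58) and 0.0532 with at least 10 counts asked of every library (-0.54).

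Summed per kilobase of exon (CPM divided by exon length in kilobases), the 3 BH3-only members, without Pmaip1 and the other BH3-only genes, reached 11.6, 12.03 and 10.5 in the aged libraries and 21.2, 23.5, 20.96 and 20.5 in the young libraries. Every aged library was below every young library, which had to be so, since this held for each of the 3 members alone. Bcl2l11 was the largest part of this sum in each library but aged replicate 2, where Bbc3 (5.22) was above Bcl2l11 (4.74). With the length of the longest transcript in place of all exons, Bcl2l11 (7.56) was above Bbc3 (6.11) there too.

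Bcl2, the founding anti-apoptotic member, was lower in aged cells together with the BH3-only members. It lies at chr1:106538178-106714274 on the minus strand. Bcl2 CPM were 140.5, 141.0 and 127 in the aged libraries and 209, 231, 189 and 177 in the young libraries. The groups did not overlap, and young replicate 4 was the nearest young library to the aged ones. The mean was 136 ± 8.21 (SD, n = 3) against 201 ± 23.8 (SD, n = 4), a log2 fold change of -0.56 (SE 0.117, adjusted p = 0.0150, edgeR). Without aged replicate 3 it was -0.51 with an adjusted p of 0.0590. With GC content and length trends removed it was -0.44, and the adjusted p of 0.0495 was just under the threshold. With the replicate number as a block it was -0.62 and the call was lost (adjusted p = 0.0696). An antisense gene, D630008O14Rik, covers 6.09% of the exon length of Bcl2, and reads there could not be assigned by strand.

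The ratio of Bcl2 to Bcl2l11, both per kilobase, was 2.65, 3.25 and 2.91 in the aged libraries and 2.30, 2.37, 2.26 and 2.30 in the young libraries. The young libraries varied little in this ratio (SD 0.0454, n = 4), and all 3 aged libraries were above them. The ratio of Bcl2 to Bmf was 7.39 to 7.69 in aged and 3.35 to 4.59 in young libraries. The ratio of Mcl1 to Bcl2l11 was 19.8 to 30.3 in aged and 16.5 to 19.6 in young libraries, so that aged replicate 1 (19.8) lay next to young replicate 4 (19.6). The ratio of Bax to Bcl2 was also higher in aged (2.68 to 3.20) than in young libraries (1.64 to 2.21), with no overlap. These ratios describe the libraries and carry no test. Their size depends on the gene length used: with the longest transcript, the ratio of Mcl1 to Bcl2l11 was 12.4 to 19.0 in aged and 10.3 to 12.3 in young libraries, and a change of length scales all libraries alike.

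Mcl1, the short-lived anti-apoptotic member on which Tregs depend, lies at chr3:95658788-95663176 on the plus strand. Mcl1 CPM were 393, 471 and 491 in the aged libraries and 583, 598, 534 and 560.5 in the young libraries. Every aged library was below every young library, and aged replicate 1 was the lowest. The mean was 452 ± 51.8 (SD, n = 3) against 569 ± 27.9 (SD, n = 4), a log2 fold change of -0.33 (SE 0.118, adjusted p = 0.0894, edgeR), which did not pass the threshold. DESeq2 gave -0.36 with an adjusted p of 0.0193, and the other alternatives gave adjusted p-values from 0.0565 to 0.266.

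Bcl2l1, which encodes BCL-XL, varied widely within both ages, with an SD of 89.1% of the mean in aged and 50.9% in young libraries. It lies at chr2:152780668-152831728 on the minus strand. Bcl2l1 CPM were 66.9, 497 and 185 in the aged libraries and 344, 77.0, 200.04 and 258 in the young libraries. The aged libraries reached both below and above the young ones, with aged replicate 1 and young replicate 2 far below the other libraries and aged replicate 2 above them. The highest library was 7.43 times the lowest, against 1.20 times for Bak1. The log2 fold change was 0.18 (SE 0.649, adjusted p = 0.878, edgeR) and turned to -0.81 without aged replicate 2 and to -0.10 without young replicate 2, uncalled in each case.

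Erythroid transcripts varied along with Bcl2l1. The summed CPM of the 7 erythroid markers was 12707, 156939 and 79829 in the aged libraries and 116177, 12383, 61668 and 59976 in the young libraries. The 2 libraries lowest in Bcl2l1 were the 2 lowest in erythroid transcripts, and the 2 highest, aged replicate 2 and young replicate 1, were the 2 highest. Because 2 libraries stood apart and fewer than 6 remained, no correlation was computed. With the erythroid level as a covariate, also added once the data had been seen, the log2 fold change of Bcl2l1 was -0.17 and its SE fell from 0.649 to 0.176 (adjusted p = 0.524, edgeR). In the same fit the 6 called members stayed called, with Bmf at -1.52, Bcl2l11 at -0.89, Bcl2 at -0.56, Bbc3 at -0.57, Bcl2a1b at 1.66 and Bcl2a1d at 1.07. A covariate chosen in this way over 7 libraries does not identify a source, and the part of erythroid transcripts in the level of Bcl2l1 or of the called members was not tested.

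**Figure D2:**
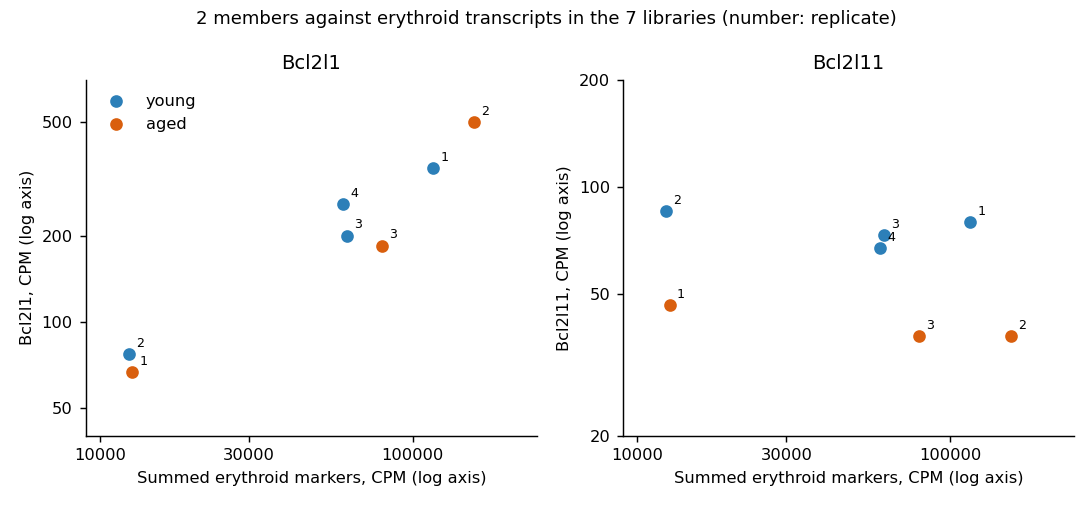
CPM of Bcl2l1 (left) and Bcl2l11 (right) against the summed CPM of 7 erythroid markers in the 3 aged (orange) and 4 young (blue) libraries, numbered by replicate, on log axes. Bcl2l1 goes from 66.9 and 77.0 CPM in the 2 libraries with the fewest erythroid transcripts to 497 CPM in the one with the most, and Bcl2l11 is at 38.1 to 46.6 CPM in the aged and 67.2 to 85.4 CPM in the young libraries.

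Bcl2a1b and Bcl2a1d, the members that were higher in aged cells, are near-identical copies on chromosome 9. Both encode A1, an anti-apoptotic protein induced by NF-kB in activated lymphocytes and made in large amounts by neutrophils and other myeloid cells. Bcl2a1b lies at chr9:89199209-89207827 on the plus strand and Bcl2a1d at chr9:88723285-88731914 on the minus strand, and another copy, Bcl2a1a, at chr9:88956900-88962419 on the plus strand. Their coding sequences of 519 bases differ at 6 positions between Bcl2a1b and Bcl2a1d, 11 between Bcl2a1a and Bcl2a1b and 7 between Bcl2a1a and Bcl2a1d. The first 90 coding bases are shown because they hold 6 of the 12 positions at which the 3 copies differ, marked in capitals, and so let a reader judge how far reads could be told apart. They lie in exon 1 of 2, at chr9:89199360-89199449, chr9:88731630-88731719 and chr9:88957051-88957140, respectively.
Bcl2a1b: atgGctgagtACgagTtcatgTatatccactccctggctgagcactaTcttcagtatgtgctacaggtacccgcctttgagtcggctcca
Bcl2a1d: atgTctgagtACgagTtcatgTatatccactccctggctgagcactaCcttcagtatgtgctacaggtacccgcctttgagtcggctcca
Bcl2a1a: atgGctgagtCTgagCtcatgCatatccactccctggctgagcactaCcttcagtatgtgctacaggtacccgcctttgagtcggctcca

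Of all 100-base windows of the transcript, 31.1% in Bcl2a1b and 54.7% in Bcl2a1d also occurred in another copy, and a read from such a window has no unique place. These shares depend on the length of the window, which stands for the read length, not given in the sources used here: they were 57.6% and 79.5% at 50 bases and 14.2% and 30.3% at 150 bases. The split of reads among copies is therefore uncertain. Bcl2a1b also shares 49.1% of its exon length with Gm29094, an annotated gene on the same strand that had no count in any library.

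Bcl2a1b CPM were 9.79, 9.97 and 14.6 in the aged libraries and 2.27, 7.08, 3.00 and 3.51 in the young libraries. The groups did not overlap, and young replicate 2 was nearer to the lowest aged library than to the next young one. The mean was 11.5 ± 2.73 (SD, n = 3) against 3.97 ± 2.14 (SD, n = 4), a log2 fold change of 1.52 (SE 0.366, adjusted p = 0.0261, edgeR). The call was lost without aged replicate 3 (1.31, adjusted p = 0.0946) and without young replicate 1 (1.34, adjusted p = 0.0585), 3 (1.41, adjusted p = 0.0730) or 4 (1.46, adjusted p = 0.0739).

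Bcl2a1d CPM were 24.6, 21.4 and 37.9 in the aged libraries and 10.2, 18.7, 13.7 and 12.6 in the young libraries. Both copies were highest in aged replicate 3 and, among young libraries, in young replicate 2. The mean was 28.0 ± 8.72 (SD, n = 3) against 13.8 ± 3.57 (SD, n = 4), a log2 fold change of 1.02 (SE 0.249, adjusted p = 0.0275, edgeR). The call of Bcl2a1d was lost without aged replicate 3 (0.74, adjusted p = 0.0925), without young replicate 1 (0.90, adjusted p = 0.0657), 3 (1.01, adjusted p = 0.0711) or 4 (0.97, adjusted p = 0.0752), and with library size as the sole scaling (0.95, adjusted p = 0.0531).

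Bcl2a1a, not among the 10 members, was at 1.40, 2.72 and 7.77 CPM in aged and 3.15, 3.71, 2.37 and 4.87 CPM in young replicates, with overlapping groups and a log2 fold change of 0.16 (adjusted p = 0.867, edgeR). A sum of the copies does not depend on which copy a counted read was given to. Reads with no unique place may have been left out of it, to a different extent for each copy. The sum was 35.8, 34.1 and 60.3 CPM in the aged libraries and 15.6, 29.5, 19.1 and 21.001 CPM in the young libraries. The groups did not overlap, and the log2 fold change of the sum was 1.02 (SE 0.259, adjusted p = 0.0309, edgeR). Like that of each copy, the call of the sum was lost without aged replicate 3 (0.72, adjusted p = 0.104), without young replicate 1 (0.91, adjusted p = 0.0730), 3 (0.98, adjusted p = 0.0838) or 4 (1.02, adjusted p = 0.0779), and, like that of Bcl2a1d, with library size as the sole scaling (0.95, adjusted p = 0.0556).

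Of 10 neutrophil markers, 5 were called higher in aged libraries and none lower, beside 9.80% of all genes called higher. Their summed CPM was 5366, 1936 and 736 in the aged libraries and 621, 271, 955 and 439 in the young libraries, so that the groups overlapped and none of the 10 markers was at 0 in any library. Among aged libraries, Bcl2a1b and Bcl2a1d were highest where the neutrophil sum was lowest. Without aged replicate 1, the library richest in neutrophil transcripts, the log2 fold changes were 1.62 for Bcl2a1b and 1.10 for Bcl2a1d. Young replicate 2, highest among young libraries in both copies, had the lowest neutrophil sum of all 7. The sum of 4 plasma cell markers, none of them called, was 558, 867 and 1136 CPM in the aged libraries. In the young libraries it was 225, 1831, 403 and 316 CPM. Like both copies, it was highest in aged replicate 3 among aged and in young replicate 2 among young libraries. The sum of 8 effector memory T cell markers was highest in these same libraries. It was 836, 772 and 877 CPM in the aged and 546, 677, 565 and 506 CPM in the young libraries. Unlike the plasma cell sum, it did not overlap between ages. The part of neutrophil, plasma cell or effector memory T cell transcripts in the level of these copies was not tested.

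**Figure D3:**
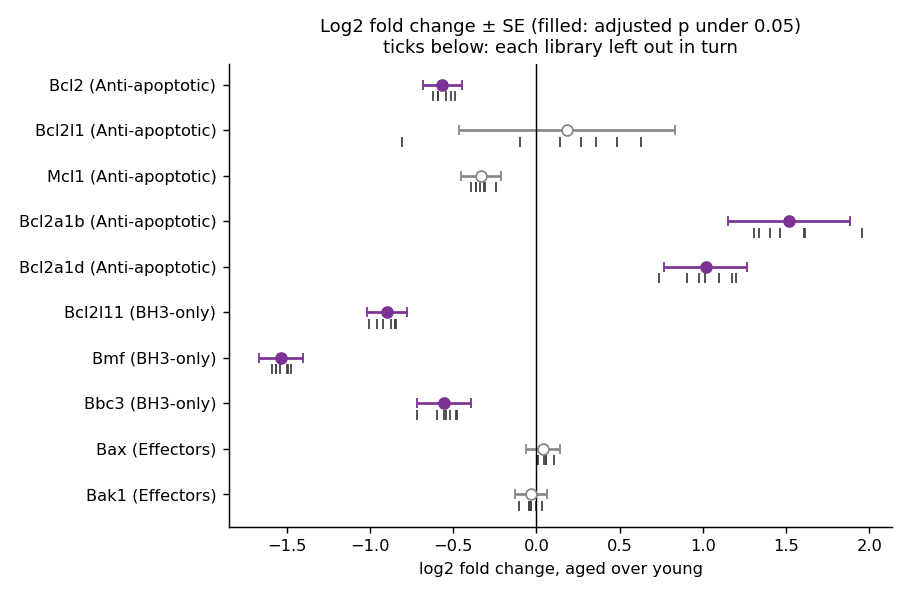
Log2 fold change (aged over young) ± SE of each member by role from 3 aged and 4 young libraries. Filled points passed an adjusted p of 0.05, and ticks below each point give the value with each of the 7 libraries left out in turn. The ticks lie close together for Bmf (-1.59 to -1.47) and spread across 0 for Bcl2l1 (-0.81 to 0.63).

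Bax and Bak1, the effectors that form the pores in the outer mitochondrial membrane, showed no difference beyond the spread between libraries. Bax lies at chr7:45461697-45466898 on the minus strand, and its CPM were 65.7, 65.0 and 69.6 in the aged libraries and 59.1, 73.9, 59.5 and 67.2 in the young libraries. The aged values lay inside the range of the young ones. The log2 fold change of Bax was 0.04 (SE 0.102, adjusted p = 0.826, edgeR).

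Bak1 lies at chr17:27019810-27029009 on the minus strand, and its CPM were 41.9, 34.8 and 38.4 in the aged libraries and 39.0, 41.6, 38.1 and 38.3 in the young libraries. The groups overlapped, with aged replicate 1 above and aged replicate 2 below every young library, and the log2 fold change was -0.03 (SE 0.0972, adjusted p = 0.857, edgeR). Both signs were small enough to turn with the setting. That of Bax turned to -0.030 with library size as the sole scaling, which moved the median of all genes by -0.071. That of Bak1 turned to 0.032 without aged replicate 2. Exons of other genes cover 12.2% of the exon length of Bax (Gm45808, same strand) and 25.5% of that of Bak1 (Ggnbp1, opposite strand), where reads could not be assigned.

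Per length, Mcl1 was the highest member in both ages. In young cells the level of Mcl1 was 166 ± 8.18 CPM per kb (SD, n = 4), followed by Bcl2l1 (47.9 ± 24.4), Bax (41.2 ± 4.45), Bcl2 (22.0 ± 2.59), Bak1 (16.3 ± 0.653), Bcl2a1d (16.0 ± 4.14), Bcl2l11 (9.51 ± 0.980), Bbc3 (6.30 ± 0.448), Bmf (5.73 ± 0.669) and Bcl2a1b (4.85 ± 2.61). Neighbours whose ranges overlapped in this order were Bcl2l1 and Bax, Bak1 and Bcl2a1d, Bbc3 and Bmf, and Bmf and Bcl2a1b. In aged cells the level of Mcl1 was 132 ± 15.2 CPM per kb (SD, n = 3), and Bcl2a1d (32.4 ± 10.1) stood in 4th place above Bak1 (15.9 ± 1.47) and Bcl2 (14.9 ± 0.897). Bcl2a1b moved from 10th place to 7th (14.0 ± 3.34), above Bcl2l11 (5.09 ± 0.611), and Bmf was last (1.98 ± 0.101). These levels divide by all exon bases, of which other genes share 49.1% for Bcl2a1b and 25.5% for Bak1. Reads on several genes were left out, so the level and place of Bcl2a1b may be too low in both ages. In aged cells the ranges overlapped between Bcl2l1 and Bax, Bax and Bcl2a1d, Bak1 and Bcl2, Bcl2 and Bcl2a1b, and Bcl2l11 and Bbc3. With the length of the longest transcript in place of all exons, Bcl2 (18.9) came above Bak1 (16.1) in aged cells and the order was otherwise the same, but the mean level of Bcl2l11 went to 15.2 in young and 8.12 in aged cells and that of Bcl2l1 to 85.6 and 97.2.

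**Figure D4:**
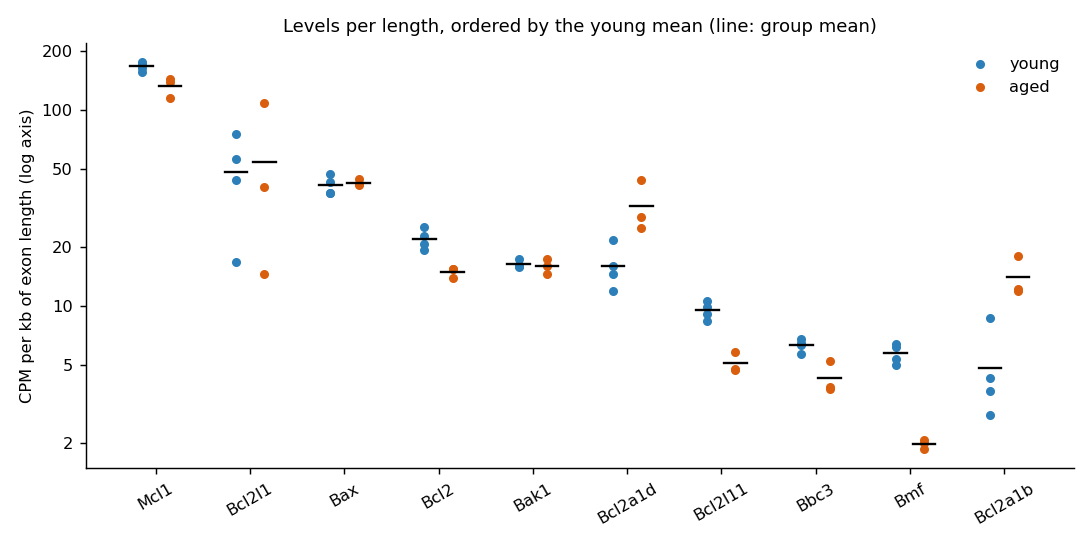
CPM per kilobase of exon length (log axis) of the 10 members in young (blue, n = 4) and aged (orange, n = 3) libraries, ordered by the young mean, with a line at each group mean. Mcl1 is highest in both ages, and Bcl2a1b rises from the lowest young mean (4.85) to 14.0 in aged cells while Bmf falls from 5.73 to 1.98. Exon lengths include parts shared with other genes (49.1% for Bcl2a1b), where reads were left out.

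The other genes of the pathway were read from 4 lists. Of the other BCL-2 family genes, 13 of 17 were tested, 2 were higher and none lower in aged cells. Bcl2l15, a little-studied relative, was at 2.796, 5.74 and 3.84 CPM in aged and 0.874, 0.911, 0.790 and 0.788 CPM in young libraries, with a log2 fold change of 2.28 (SE 0.304, adjusted p = 0.00261, edgeR). Pmaip1, which encodes the BH3-only protein NOXA, an antagonist of MCL-1 and A1, was at 24.4, 26.7 and 33.3 CPM in aged and 19.9, 19.5, 15.1 and 20.1 CPM in young libraries. It was higher in aged cells, with a log2 fold change of 0.59 (SE 0.154, adjusted p = 0.0346, edgeR). Its call was lost with library size as the sole scaling (0.53, adjusted p = 0.0674), and held in 1 of the 7 fits that left out a library, the one without aged replicate 1, with values from 0.45 to 0.68 and adjusted p-values from 0.0239 to 0.119 over the 7. Bid and Bad, 2 further BH3-only genes, had log2 fold changes of -0.06 (adjusted p = 0.777) and -0.23 (adjusted p = 0.359), and Bcl2a1c, Bcl2l10 and Hrk had no count.

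Of 23 genes that act at or after the mitochondrial step, 2 were higher and 2 lower. Bag3, a co-chaperone of HSP70 that stabilises anti-apoptotic proteins, had a log2 fold change of 1.60 (SE 0.159, adjusted p = 0.000933, edgeR), with 18.5 to 22.8 CPM in aged and 6.24 to 8.60 CPM in young libraries. Birc2, an inhibitor of apoptosis that acts as a ubiquitin ligase, had one of 0.75 (adjusted p = 0.00675). Dffa, the inhibitor of the caspase-activated DNase, fell by 0.54 (adjusted p = 0.0212) and Xiap, a direct inhibitor of caspases, fell by 0.35 (adjusted p = 0.0367). Bag3 and Birc2 kept their calls with each library left out in turn. Dffa lost its call without aged replicate 3 or young replicate 1, 3 or 4 (adjusted p up to 0.0713), and Xiap kept its call in 1 of 7 such fits, the one without aged replicate 1 (adjusted p up to 0.107). Over the fits with a library left out, log2 fold changes were -0.63 to -0.44 for Dffa and -0.40 to -0.31 for Xiap. Xiap also lost its call with library size as the sole scaling (-0.41, adjusted p = 0.0618). The same held with no filter on low counts (-0.37, adjusted p = 0.0592) and with GC and length trends removed (-0.33, adjusted p = 0.0563).

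Of 10 death receptor genes, 1 was higher and 1 lower. Cflar, which encodes the caspase-8 inhibitor c-FLIP, had a log2 fold change of 0.37 (adjusted p = 0.0289, edgeR), and Ripk1, a kinase downstream of TNF receptors, fell by 0.64 on the log2 scale (adjusted p = 0.0357). Both calls were lost in most fits that left out a library, and held in 2 of 7 for Cflar, without aged replicate 1 or 2, and in 1 of 7 for Ripk1, without aged replicate 1 (adjusted p up to 0.0995 and 0.0988). Over the 7 fits, log2 fold changes were 0.30 to 0.43 for Cflar and -0.88 to -0.49 for Ripk1. Cflar also lost its call with library size as the sole scaling (0.31, adjusted p = 0.147) and with no filter on low counts (0.35, adjusted p = 0.0773).

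Of 30 regulators of the family, 28 were tested, 3 were higher and 2 lower. Foxo1, a transcription factor known to act on Bcl2l11 and Bbc3, was at 191, 167 and 179 CPM in aged and 275, 229, 255 and 287 CPM in young libraries. The groups did not overlap, and the log2 fold change of Foxo1 was -0.55 (SE 0.111, adjusted p = 0.0140, edgeR), with an adjusted p of 0.0543 without aged replicate 3. Myc fell by 0.71 (adjusted p = 0.0189), while Stat3, Icos and Il2rg, which encodes the common cytokine receptor chain, had log2 fold changes of 0.49, 0.92 and 0.39 (adjusted p = 0.0169, 0.0221 and 0.0459). With a library left out in turn, the call held in 3 of 7 fits for Myc, 4 for Stat3, 3 for Icos and 1 for Il2rg, and each of these was lost without aged replicate 3, with adjusted p-values up to 0.0582, 0.0618, 0.0768 and 0.118. Values in these fits were -0.89 to -0.57 for Myc, 0.45 to 0.56 for Stat3, 0.80 to 1.11 for Icos and 0.32 to 0.44 for Il2rg. With library size as the sole scaling the calls of Stat3 (0.43, adjusted p = 0.0808) and Il2rg (0.31, adjusted p = 0.0992) were lost. Il2rg also lost its call with no filter on low counts (0.36, adjusted p = 0.0939) and with GC and length trends removed (0.31, adjusted p = 0.0720). Its call was lost too with thinning to the same total of gene counts (0.38, adjusted p = 0.0533). Foxo3 had a log2 fold change of -0.34 (SE 0.356, adjusted p = 0.554) and, like Bcl2l1, was lowest in aged replicate 1 and young replicate 2. Trp53, which encodes p53, had one of -0.16 (adjusted p = 0.335), and Stat5a and Stat5b, which carry the interleukin-2 signal, had -0.11 and -0.19 (adjusted p = 0.369 and 0.352).

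**Figure D5:**
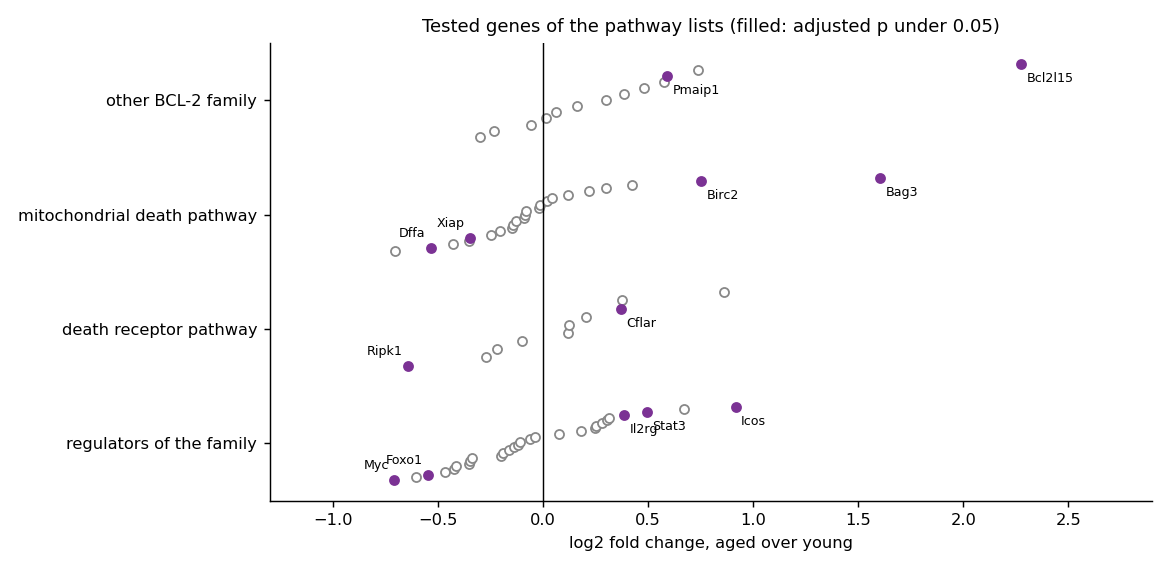
Log2 fold change (aged over young) of the tested genes in 4 pathway lists from 3 aged and 4 young libraries, with genes past an adjusted p of 0.05 filled and named. Most genes lie near 0, and Bcl2l15 (2.28) and Bag3 (1.60) stand farthest to the right.

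Median log2 fold changes were 0.30 for the other family genes, -0.09 for the mitochondrial list, 0.12 for the death receptor list and -0.11 for the regulators, beside 0.02 over all genes tested. The calls came to 2 of 13, 4 of 23, 2 of 10 and 5 of 28, beside 16.7% of all genes.

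FOXO factors bind the letters GTAAACA, which were searched on both strands in the RefSeq promoter windows (GRCm38.p6, 250 bases before to 50 after a start) because Foxo1 and the BH3-only members were lower together. They occurred in 1 of 2 windows of Bcl2l11 and 1 of 3 windows of Bbc3, and in none of the windows of the other 8 members, Bmf among them. Of the 32851 windows searched, which leave out 1 chromosome that holds no member, 1199 (3.65%) had them. By gene, 1095 (4.05%) of 27025 genes had them in a window. The matches are shown in capitals, at chr2:128125788-128125842 for Bcl2l11 (plus strand) and chr7:16310069-16310125 for Bbc3 (plus strand, where the letters TGTTTAC are the match on the opposite strand). They begin 227 and 167 bases before the start of transcription, and are a description of these windows. The part of Foxo1 in the change of any member was not tested.
Bcl2l11: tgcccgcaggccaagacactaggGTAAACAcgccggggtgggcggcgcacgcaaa
Bbc3: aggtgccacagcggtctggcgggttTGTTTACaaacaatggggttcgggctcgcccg

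Markers of T cell states and of other cells also differed between ages. Of 7 naive T cell markers, 7 were called lower in aged libraries, beside 6.94% of all genes, and their summed CPM was 1139 to 1415 in aged and 2242 to 2618 in young libraries. Of 8 effector memory markers, 5 were called higher and none lower, beside 9.80% of all genes called higher, with sums of 772 to 877 CPM in aged and 506 to 677 CPM in young libraries. Itgb1, the most abundant of the 8, was not among those called (log2 fold change -0.03, adjusted p = 0.887, edgeR). No marker of either list was at 0 in any library. Like Bcl2l11, Bmf, Bbc3 and Bcl2, the sum of the naive list did not overlap between ages. Of single genes 29.9% did not overlap, a share that does not apply to a sum over 7 markers. The sum of the effector memory list and that of 5 platelet markers, led by Itga2b, did not overlap either. The platelet sum was 20.2 to 39.5 CPM in aged and 8.20 to 17.3 CPM in young libraries, with 1 of the 4 tested called higher. Of 10 monocyte or macrophage markers, led by Lyz2, 1 was called higher and 3 lower, with sums of 405 to 565 CPM in aged and 523 to 612 CPM in young libraries. Of 6 dendritic cell markers, led by Itgax, 1 was called higher and 2 lower, with sums of 41.1 to 62.9 and 55.8 to 74.8 CPM. The part of these cells and cell states in the change of the members was not tested.

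Genes among the 2 most alike to each called member over the 7 libraries, by Pearson's r of log2 CPM in 9426 genes with a mean log2 CPM of at least 3, were Zfp358 and Rbbp4 for Bmf (r = 0.992 and 0.992), Aven for Bcl2l11 (0.995), Ocel1 and Prcc for Bbc3 (0.992 and 0.987), and Arf3 and Smc4 for Bcl2 (0.997 and 0.990). They were Rab19 for Bcl2a1b (0.992), and Med30 and Smco4 for Bcl2a1d (0.988 and 0.986). Genes that differ between ages reach a high r over 7 libraries through the age difference itself, so these values describe likeness only.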

How the data were processed

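RNA-sequencing libraries of CD4+CD25+ splenocytes were analysed, 3 from aged and 4 from young mice. The authors deposited raw read counts per Ensembl gene for each library, in the layout of HTSeq-count without strand, and 1 table for the series whose signal values equal each count divided by a constant per library. This table also holds the authors' own fold changes and p-values, which were not used. The submitters' processing notes name the build mm10, and the aligner is not given in the sources used here. Reads on no gene or on several (13.1% to 20.9% per library) were left out. Coordinates and lengths are from GENCODE M21 (GRCm38), in which 25326 of 25469 identifiers matched, and promoters from RefSeq.

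Counts were tested with edgeR 4.0.16 in R 4.3.3 (TMM, filterByExpr by group, quasi-likelihood test, no covariate), with Benjamini-Hochberg adjustment over 13904 genes and a threshold of 0.05. The study names limma for its comparison, so limma-voom (limma 3.58.1) was an alternative, as were DESeq2 1.42.0, RLE or library-size scaling, other filters, removal of abundant gene classes (mitochondrial, immunoglobulin and haemoglobin), GC content and length trends removed, thinning to 10734234 counts, summed Bcl2a1 copies, the replicate number as a block, a minimum log2 change of 1 in size, and each library left out in turn. An erythroid covariate, the removal of 2 libraries together, and library-size scaling or a left-out library on the summed copies, and the longest transcript for ratios and sums, were added after the data were seen. Standard errors were computed as the size of the log2 fold change divided by the square root of F. The fit was tested on simulated counts. Sampling limits cover counting error only.

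Members and lists were chosen with earlier results of these data known. Named in the text were the 10 members, every called gene of 4 pathway lists (at most 8 a list), 8 preset pathway genes, defining markers, the most abundant gene of each marker list quoted, and the 2 genes most alike to each called member. Results for some genes that this rule names are not reported here. Bcl2l10, Hrk and Bcl2a1c were named for having no count, Bik as a further BH3-only gene after its value was seen, and Gm29094, Gm45808, Ggnbp1 and D630008O14Rik for overlapping a member. Lists of CD8 T, NK, B and cell cycle markers were also summed, and of their genes 1 NK cell marker was called lower and none higher.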

Additional observations from a re-analysis of the deposited data

Results flagged for a closer look

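Among the CPM values of the 10 members and 19 named pathway genes, 1 young library stood apart by Dixon's test (4 libraries, 95% level), which chance passes for about 1 in 20 groups. Pmaip1 was at 15.1 CPM in young replicate 3 and at 19.5 to 20.1 CPM in the other 3 young libraries. The aged group of 3 was not tested in this way.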

How the results depend on the processing

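Over 20 alternative fits, Bmf and Bcl2l11 stayed called and lower in all, though Bcl2l11 (-0.90) misses a minimum log2 change of 1. Called members numbered 5 to 7 of 10 under most settings, and 5 with the Bcl2a1 copies summed, where Bcl2a1b and Bcl2a1d counted as 1. They numbered 2 with the replicate block, 3 where a log2 change of 1 in size was also asked, and 2 to 6 with a library left out. All genes called went from 2327 to 292 with the replicate block and 1016 with the fold threshold, and to 1237 to 3058 with a library left out. Same-numbered libraries did not deviate together over all genes (r = -0.09, -0.29 and -0.14), which showed no pairing by number. Whether they shared a batch is not given by the labels and was not tested. A block also uses up degrees of freedom, and why fewer genes were called with it was not tested. Uncalled values turned sign for Bcl2l1 (-0.073 with limma-voom, -0.17 with the erythroid covariate, -0.81 to 0.63 with a library left out), Bax (-0.030 with library size only), Bak1 (-0.10 to 0.032 with a library left out) and Bid (0.086 without the 2 libraries highest in neutrophil and plasma markers, -0.10 to 0.035 with 1 left out). Bax turned under a scaling that moved the median of all genes by -0.071. The cause of the other turned signs was not tested. No scaling moved the median of all genes by over 0.1. Counts were low for Bcl2l15, Bcl2a1a and Bcl2a1b, from 10 to 156 per library, and for Bik, from 7 to 19.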
